A study of Mus musculus with 9 samples.

Results

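The genes described here are 10 negative regulators of T cell receptor signalling, chosen by symbol as phosphatases, ubiquitin ligases and kinases that dampen the receptor's signals. They are Csk, Ptpn6, Ptpn22, Ptpn2, Ubash3a, Ubash3b, Cbl, Cblb, Dgka and Dgkz, and all 10 were found among the 18188 genes listed for each library. Poly(A) RNA from CD8+ T cells of mouse spleens was sequenced in 4 libraries of genotype Rig1 KO, which carry a knockout of the gene for the cytosolic RNA sensor RIG-I, and in 5 libraries of genotype WT. The series' title names RIG-I as a checkpoint inside CD8+ T cells, and its design compares the WT and KO profiles. The sources used here do not give the mouse strain or age, the knockout allele, the cells in which it acts, any stimulation, or how the cells were purified. Titles give a number to each library but no animal, and for that reason a p-value here reflects the spread among libraries only, which may be technical.

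When the T cell receptor is engaged, the kinase LCK phosphorylates the receptor's CD3 chains, the kinase ZAP-70 docks there, and adaptors recruit enzymes that release calcium and diacylglycerol. The proteins encoded by the 10 genes act at successive steps to limit this cascade. CSK and the phosphatases keep LCK and ZAP-70 in check, the UBASH3 proteins remove phosphate from ZAP-70, the CBL ligases attach ubiquitin to receptor chains and signalling enzymes, and the diacylglycerol kinases consume diacylglycerol. Loss of several of them in mice is known to lower the threshold for T cell activation.

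The deposited unit is TPM, in which a gene's reads are divided by its length and the resulting values are scaled to sum to 1000000 in each library. Reads recovered from the TPM values numbered 15496262 to 17893558 per library, and 820 to 28231 reads lay behind a value of 1 of the 10 genes in 1 library, so counting error alone gives a coefficient of variation of 0.595% to 3.49%. Transcripts of Ddx58, the older symbol of the RIG-I gene, were 33.3 ± 2.04 TPM in Rig1 KO and 65.1 ± 2.0 TPM in WT libraries (SD, n = 4 and 5). Every Rig1 KO library was lower than every WT library, and the Rig1 KO mean was 51.1% of the WT mean. The summed TPM of 8 CD8+ T cell markers was 6630 to 7277 in Rig1 KO and 4770 to 5496 in WT libraries, with 7 of 8 markers higher, and none of the markers was at 0 in all libraries. The summed TPM of 11 B cell markers was 93.9 to 206 in Rig1 KO and 171 to 1233 in WT libraries, with 9 of 10 tested markers lower. The natural killer cell list summed to 577 to 691 TPM in Rig1 KO and 190 to 339 TPM in WT libraries, with 6 of 8 markers higher. Most of this sum came from Eomes (276 to 317 TPM in Rig1 KO and 116 to 155 TPM in WT libraries) and Gzma (142 to 255 and 16.2 to 91.9 TPM). Tyrobp overlapped between the groups (52.3 to 75.3 and 30.6 to 85.1 TPM). Whether the CD8+ T cells themselves supplied these transcripts was not tested. The basophil and mast cell list summed to 207 to 404 TPM in Rig1 KO and 11.7 to 46.3 TPM in WT libraries, with all 5 higher, and the platelet list to 31.2 to 39.3 TPM in Rig1 KO and 180.1 to 242 TPM in WT libraries, with all 4 lower. The myeloid list, with 2 of 11 markers higher and 2 lower, overlapped between the groups (732 to 843 TPM in Rig1 KO and 484 to 1138 TPM in WT libraries). For erythroid cells, 3 of 4 tested markers were higher, and the list summed to 175 to 318 TPM in Rig1 KO and 73.8 to 196 TPM in WT libraries. For CD4+ T cells, 2 of 4 markers were lower, and the list summed to 21.1 to 24.6 TPM in Rig1 KO and 21.6 to 68.3 TPM in WT libraries. In bulk samples, fewer cells of a type and less RNA per cell cannot be told apart. The part of these other cell types in the results below was not tested, and for B cells values are given. The mean log2(TPM + 1) of the 11 B cell markers was 2.08 to 3.22 in Rig1 KO and 3.04 to 5.57 in WT libraries. Because it nearly follows genotype, a fit with this mean as a covariate cannot tell the part of B cells from that of genotype.

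All 10 genes passed the filter on low values, and 6 of them differed between the genotypes at an adjusted p below 0.05, 5 higher in Rig1 KO and 1 lower. Ubash3a, Ptpn22, Ptpn6, Ubash3b and Dgka were the 5 that rose, and Cblb was the 1 that fell. Among all 10540 tested genes 45.7% were called, 33.5% higher and 12.2% lower, and the count of 6 in 10 is to be read against that background. The TPM ranges of the groups did not overlap for the same 6 of the 10 genes, against 38.1% of all tested genes (28% with the Rig1 KO range above and 10.1% with it below). None of the 10 changed by 1 log2 unit or more, a size reached by 5.26% of the tested genes. The median log2 fold change was 0.15 over the 10 genes and 0.13 over all tested genes.

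The shift over all genes moved with the library scaling. When each library was instead divided by a median ratio size factor, the median over all genes was 0.01 and that of the 10 genes 0.03, and all calls together became 23.7% higher and 21.5% lower (45.2% in all). Under this scaling 3 of the 10 genes were higher (Ubash3a, Ptpn22 and Ubash3b) and 1 was lower (Cblb), and the ranges did not overlap for 4 of the 10, against 37.9% of all genes. The log2 fold changes of Csk, Ptpn2, Cbl and Dgkz were at or below 0.11 with TPM as deposited and between -0.07 and -0.02 under median ratio scaling.

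**Figure D1:**
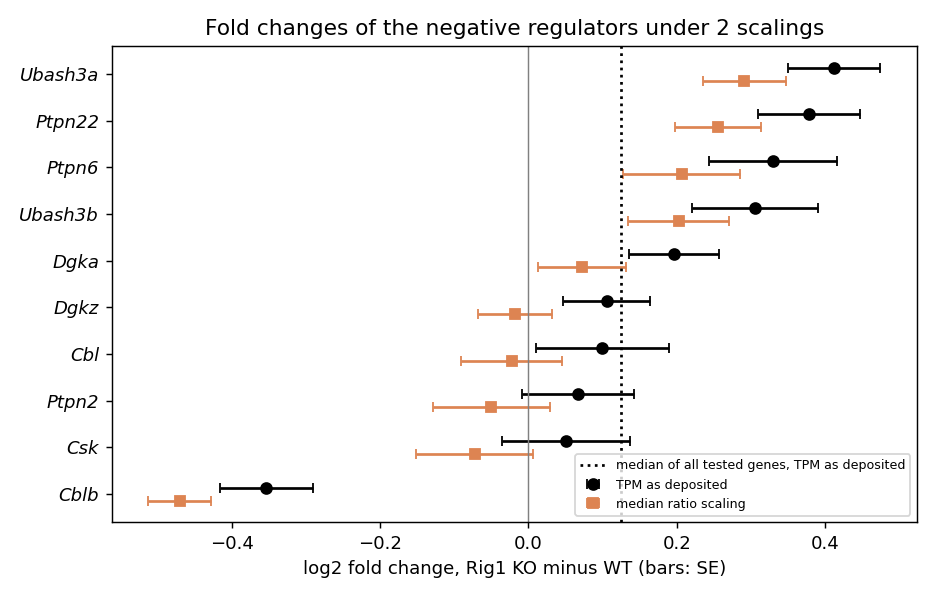
Log2 fold change (Rig1 KO minus WT) of each of the 10 genes, with its standard error, with the deposited TPM (circles) and with median ratio scaling (squares); the dotted line is the median of all tested genes with TPM as deposited. Ubash3a, at 0.41 and 0.29, lies farthest to the right and Cblb, at -0.35 and -0.47, is the only one of the 10 to the left of 0 with both scalings.

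**Figure D2:**
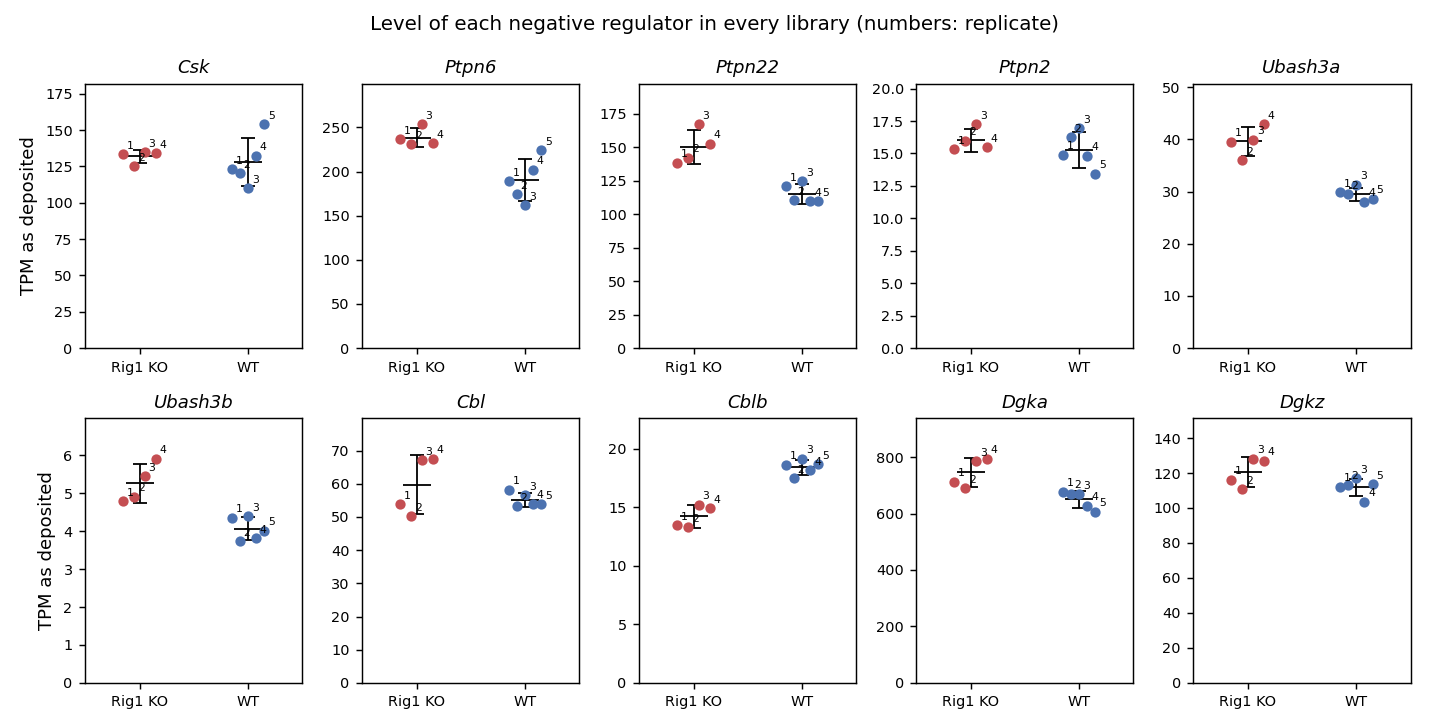
TPM of each gene in every library (points, numbered by replicate), with the mean (long line) and SD (bars) of 4 Rig1 KO libraries on the left and 5 WT libraries on the right of each panel. The groups do not overlap for Ptpn6, Ptpn22, Ubash3a, Ubash3b, Dgka and Cblb, and they overlap for Csk, Ptpn2, Cbl and Dgkz.

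Of the enzymes that act on LCK, the phosphatases Ptpn22 and Ptpn6 rose and the kinase Csk did not pass the test. PTPN22 (also called LYP or PEP) dephosphorylates the activating tyrosine of LCK and works in a complex with CSK, which phosphorylates LCK's inhibitory tyrosine. Ptpn22 was at 138, 142, 167 and 153 TPM in Rig1 KO libraries 1 to 4, against 121, 111, 125, 109.6 and 109.6 TPM in WT libraries 1 to 5. The lowest Rig1 KO library was above the highest WT library. Ptpn22 was 1.30-fold higher on the TPM scale, with a log2 fold change of 0.38 (SE 0.069, adjusted p = 0.00125), and it kept a positive sign in all 21 alternatives and passed the test in 19. It did not pass with the mean of the B cell markers as a covariate (adjusted p = 0.0670) or after scaling to the CD3 chain transcripts (adjusted p = 0.0839, a scaling chosen after seeing the data).

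Ptpn6 encodes SHP-1, a phosphatase that acts downstream of inhibitory receptors and is also abundant in B and myeloid cells. It was at 237, 231, 254 and 232 TPM in Rig1 KO libraries, against 189, 175, 162, 202 and 224 TPM in WT libraries. All 4 Rig1 KO values exceeded all WT values, with WT 5 the nearest. Its log2 fold change was 0.33 (SE 0.086, adjusted p = 0.00973) with TPM as deposited and 0.21 (adjusted p = 0.0557) under median ratio scaling, where the ranges overlapped. The call was also lost with CD3 scaling (log2 fold change 0.12, adjusted p = 0.455).

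Csk was at 133, 125, 135 and 134 TPM in Rig1 KO libraries, against 123, 120.2, 110.0, 132 and 154 TPM in WT libraries. The groups overlapped and WT 5 was the highest of all 9 libraries. Csk did not pass the test with TPM as deposited: its log2 fold change was 0.05 (95% interval -0.14 to 0.24, adjusted p = 0.649).

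Both Ptpn6 and Csk were lowest in WT 3, the WT library with the fewest B cell marker transcripts (171 TPM in sum), and highest among WT libraries in WT 5, which had the most (1233 TPM). Between these the order did not hold throughout: WT 2 (506 TPM) had less of both genes than WT 1 (361 TPM). A part of B cells in these levels was not tested. Rig1 KO 3, with a B cell marker sum of 206 TPM, had 254 TPM of Ptpn6 and 135 TPM of Csk. WT 3, with a sum of 171 TPM, had 162 TPM of Ptpn6 and 110.0 TPM of Csk. With median ratio scaling Ptpn6 was at 227 in Rig1 KO 3 and 166 in WT 3, and Csk at 121 and 113. This sets 1 library beside 1 other and tests no part of B cells or of genotype. With the mean of the B cell markers as a covariate, the log2 fold change of Ptpn6 was 0.64 (adjusted p = 0.00145) and that of Csk 0.35 (adjusted p = 0.0292), the only one of the 21 alternatives in which Csk passed the test. That mean overlaps between the groups only through Rig1 KO 3 (3.22) and WT 3 (3.04). These 9 libraries therefore cannot tell its effect from that of genotype, and the 2 values are not levels freed of B cell transcripts. Without WT 4 and WT 5, Ptpn6 had a log2 fold change of 0.44.

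**Figure D3:**
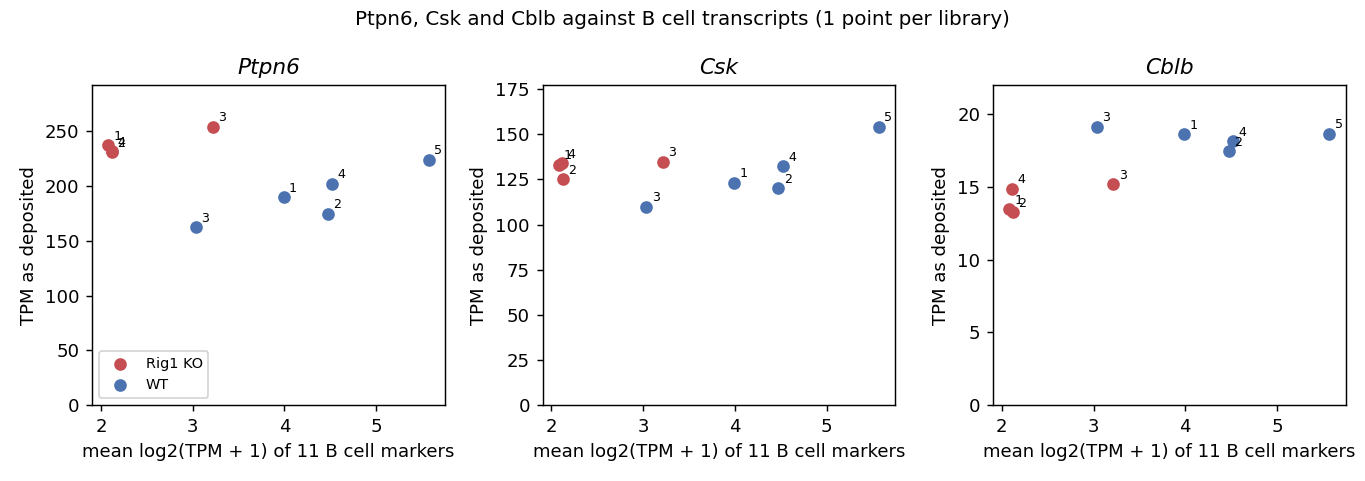
TPM of Ptpn6, Csk and Cblb (vertical axes) against the mean log2(TPM + 1) of 11 B cell markers (horizontal axis), 1 point per library numbered by replicate, Rig1 KO in red and WT in blue. Within WT, Ptpn6 and Csk are lowest in WT 3 and highest in WT 5, and both are lower in WT 2 than in WT 1. Cblb ranges within WT only from 17.5 to 19.1 TPM and lies above all Rig1 KO libraries.

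Ptpn2, whose phosphatase product acts on LCK and on Janus kinases and STAT proteins of cytokine receptors, was at 15.3, 15.99, 17.3 and 15.5 TPM in Rig1 KO libraries. In WT libraries Ptpn2 was at 14.9, 16.3, 16.9, 14.8 and 13.4 TPM. The ranges overlapped, with WT 1, WT 4 and WT 5 below all Rig1 KO libraries and Rig1 KO 3 above all WT libraries. The log2 fold change was 0.07 (95% interval -0.10 to 0.23, adjusted p = 0.494).

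The pair Ubash3a and Ubash3b, whose products STS-2 and STS-1 are histidine phosphatases of ZAP-70, both rose. UBASH3A, expressed mainly in lymphocytes, has weak phosphatase activity, and UBASH3B is the more active enzyme and is found in many tissues. Ubash3a was at 39.6, 36.1, 39.9 and 43.0 TPM in Rig1 KO libraries, against 29.9, 29.5, 31.3, 28.1 and 28.6 TPM in WT libraries. Every Rig1 KO library exceeded every WT library. With TPM as deposited, Ubash3a had the largest fold change of the 10 genes, 1.34-fold on the TPM scale (log2 fold change 0.41, SE 0.062, adjusted p = 0.000368). The fall of Cblb was the larger in size with median ratio scaling (-0.47 for Cblb and 0.29 for Ubash3a), quantile scaling (-0.50 and 0.29), voom (-0.45 and 0.35) and exon lengths (-0.41 and 0.38). Ubash3a was called in all 21 alternatives, with log2 fold changes of 0.21 to 0.46, and its absolute log2 fold change was larger than that of 72.7% of the tested genes.

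Ubash3b was at 4.79, 4.90, 5.45 and 5.91 TPM in Rig1 KO libraries, against 4.35, 3.73, 4.39, 3.82 and 4.01 TPM in WT libraries. The groups did not overlap, and the 2 highest values were those of Rig1 KO 3 and Rig1 KO 4. Its log2 fold change was 0.31 (SE 0.085, adjusted p = 0.0132), resting on 820 to 1161 reads per library, the fewest of the 10 genes. The call was lost with quantile scaling (adjusted p = 0.0843), with the B cell covariate (0.250), without WT 4 and WT 5 (0.0553) and with CD3 scaling (0.267), and Ubash3b fell below a filter of mean TPM at least 5.

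Cblb, which encodes a ubiquitin ligase that restrains T cell activation in the absence of costimulation, was the 1 gene of the 10 that fell. It was at 13.5, 13.3, 15.2 and 14.9 TPM in Rig1 KO libraries, against 18.6, 17.5, 19.1, 18.2 and 18.7 TPM in WT libraries. The highest Rig1 KO library lay below the lowest WT library. The mean in Rig1 KO was 77.2% of that in WT, its log2 fold change was -0.35 (SE 0.063, adjusted p = 0.00111) with TPM as deposited and -0.47 (adjusted p = 1.89e-05) with median ratio scaling, and the sign was negative in all 21 alternatives. The call was lost in 1 of them, the B cell covariate (log2 fold change -0.34, adjusted p = 0.0537).

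Its relative Cbl, which ubiquitinates receptor chains and kinases after engagement, was at 53.8, 50.3, 67.1 and 67.6 TPM in Rig1 KO libraries, against 58.3, 53.3, 56.5, 54.0 and 53.9 TPM in WT libraries. The Rig1 KO libraries lay on both sides of the WT range: Rig1 KO 3 and 4 above it, Rig1 KO 2 below it, and Rig1 KO 1 inside it. The coefficient of variation of Cbl was 14.98% in Rig1 KO and 3.82% in WT libraries with TPM as deposited, and 9.67% in Rig1 KO and 5.04% in WT libraries with median ratio scaling. The log2 fold change was 0.10 (95% interval -0.10 to 0.30, adjusted p = 0.386).

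The diacylglycerol kinases convert diacylglycerol to phosphatidic acid and so limit the Ras and protein kinase C arms of the signal; DGKA and DGKZ are the main forms in T cells. Dgka was at 713, 690.4, 785 and 794 TPM in Rig1 KO libraries, against 677, 671, 668, 627 and 607 TPM in WT libraries. The groups did not overlap, with Rig1 KO 2 and WT 1 the nearest to each other. Dgka had the smallest log2 fold change of the 6 called genes, 0.20 (SE 0.060, adjusted p = 0.0216), and 0.07 with median ratio scaling (adjusted p = 0.351). The call was also lost without Rig1 KO 3 (adjusted p = 0.0590) or Rig1 KO 4 (0.0698), with voom on recovered reads (0.0530), with exon lengths (0.0506), with the B cell covariate, without WT 4 and WT 5, and with CD3 scaling, where the sign turned. With quantile scaling it was 0.39 (adjusted p = 0.00141), the largest rise of the 10 genes in that setting.

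The deposited files also list Pmel, a gene on the opposite strand that overlaps Dgka. Whether the authors' counting used strand is not given, so reads of the pair may not have been told apart. Pmel was at 27.3, 22.9, 28.9 and 29.4 TPM in Rig1 KO libraries, against 57.2, 58.9, 50.3, 48.3 and 46.7 TPM in WT libraries, so it was lower in Rig1 KO where Dgka was higher.

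Dgkz was at 116, 111, 128 and 127 TPM in Rig1 KO libraries, against 112, 113, 117, 104 and 114 TPM in WT libraries. The ranges overlapped, with Rig1 KO 1 and 2 inside the WT range and Rig1 KO 3 and 4 above it. Its log2 fold change was 0.11 (95% interval -0.03 to 0.24, adjusted p = 0.168).

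Because a ratio taken within a library does not depend on that library's scaling, 4 pairs of related or partnered genes were compared as log2 ratios of TPM, with an exact two-sided permutation test over 126 arrangements (smallest possible p 0.00794) adjusted over the 4 pairs. The ratio of Cblb to Cbl was -1.9997, -1.92, -2.14 and -2.18 in Rig1 KO libraries, against -1.65, -1.61, -1.56, -1.57 and -1.53 in WT libraries. The groups were separate, with a difference of -0.48 (mean -2.06 ± 0.12 in Rig1 KO and -1.59 ± 0.04 in WT; SD, n = 4 and 5; exact p = 0.00794, adjusted p = 0.0317). All 4 Rig1 KO ratios were thus below the WT range. With TPM as deposited, the ranges of Cblb alone were already separate, as they were for 38.1% of all tested genes. The separation of this ratio is therefore not independent of the fall of Cblb. The same holds for Dgka, whose own TPM ranges were also separate, in the next pair. How often ratios of other gene pairs separate the groups was not tested. The ratio of Dgka to Dgkz was 2.63 ± 0.015 in Rig1 KO and 2.54 ± 0.074 in WT libraries (SD, n = 4 and 5), a difference of 0.09 with separate ranges (exact p = 0.0238, adjusted p = 0.0476). The ratio of Ptpn22 to Csk was 0.18 ± 0.10 in Rig1 KO and -0.15 ± 0.25 in WT libraries (SD, n = 4 and 5), a difference of 0.33 that missed the threshold (exact p = 0.0397, adjusted p = 0.0529). The ratio of Ubash3b to Ubash3a was -2.91 ± 0.087 in Rig1 KO and -2.86 ± 0.076 in WT libraries (SD, n = 4 and 5), a difference of -0.05 (exact p = 0.381, adjusted p = 0.381). With 1 library left out the smallest p of this test is 0.0179 or 0.0286, and a pair that reaches it alone has an adjusted p of 0.0714 or 0.114. The difference of Cblb to Cbl then ranged from -0.52 to -0.44. Several pairs can reach the smallest p together: without WT 3, Cblb to Cbl, Dgka to Dgkz and Ptpn22 to Csk (0.41) all passed (exact adjusted p = 0.0381). No ratio passed without any other single library.

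**Figure D4:**
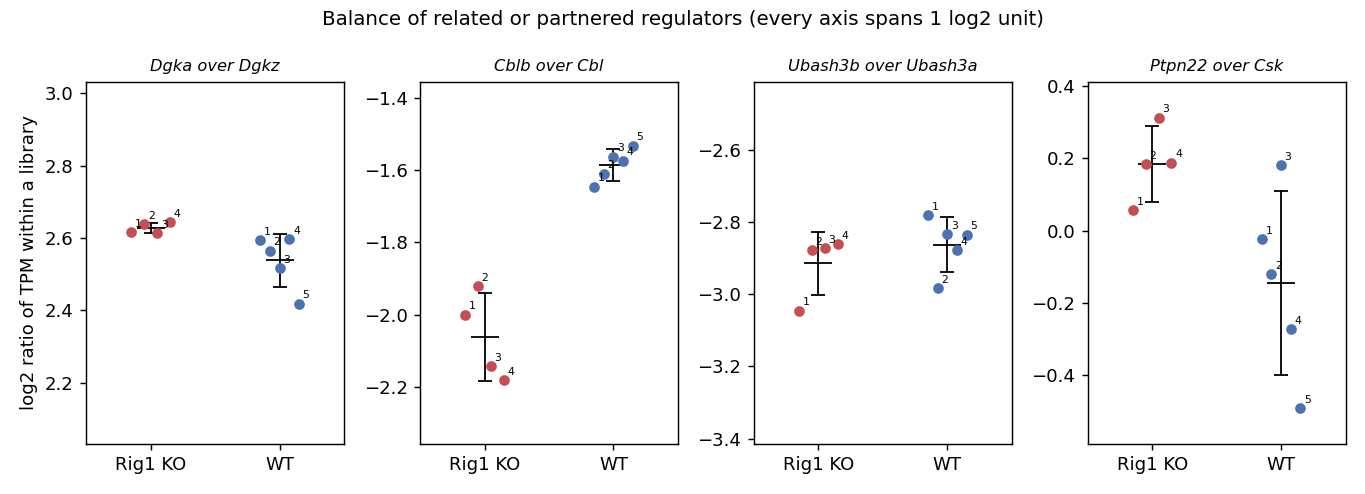
Log2 ratio of TPM within a library for 4 gene pairs (points numbered by replicate), with mean and SD, Rig1 KO (n = 4) left and WT (n = 5) right; each vertical axis spans 1 log2 unit. Cblb over Cbl separates the groups by 0.48, Dgka over Dgkz by 0.09, and the other pairs overlap.

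Levels between genes can be compared only per transcript length, because the gene lengths implied by the deposited TPM match the genomic span, introns included, for 99.0% of 12760 genes and for all 10 of these. With TPM recomputed on exon length, the order in Rig1 KO ran from Dgka (1390 ± 65.6) through Ptpn6 (550.4 ± 18.5), Ptpn22 (417 ± 27.6), Csk (342 ± 6.68), Dgkz (297 ± 13.98), Cbl (158 ± 20.2), Ptpn2 (109 ± 5.17), Cblb (86.1 ± 3.96) and Ubash3a (49.4 ± 2.77) to Ubash3b (38.8 ± 3.14; SD, n = 4). Over all 9 libraries the ranges of neighbours overlapped for Ptpn6 with Ptpn22, Ptpn22 with Csk, Csk with Dgkz, Ptpn2 with Cblb and Ubash3a with Ubash3b. Dgka stood apart at the top, above every other gene in all libraries. In WT libraries the mean of Cblb, at 115 ± 3.38, lay above that of Ptpn2, at 107 ± 10.49 (SD, n = 5). In Rig1 KO the mean of Ptpn2 lay above that of Cblb. Given the SD of Ptpn2, the WT order is one of means and does not hold in each WT library. Whether the counted reads include reads in introns is not given. If they do, dividing by exon length overstates genes with long introns, and the order between genes may differ. Cblb spans 176824 bases with 10475 in exons, and Dgka spans 24722 with 4762 in exons.

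Within the Rig1 KO group, replicates 3 and 4 held the highest value of all 10 genes (6 in replicate 3 and 4 in replicate 4), and replicates 1 and 2 the lowest (3 in replicate 1 and 7 in replicate 2). Replicates 3 and 4 were both above replicates 1 and 2 for 8 of the 10 genes and for 53.7% of all tested genes, and with median ratio scaling for 2 of the 10 and for 24.8% of all genes. The median ratio size factors of these libraries were 1.12 in replicate 3 and 1.10 in replicate 4, against 1.01 in replicate 1 and 1.003 in replicate 2, and their part in this order was not tested. After median ratio scaling the highest values were spread over all 4 libraries (3, 1, 2 and 4 in replicates 1 to 4). In WT, replicate 3 held the highest value of 6 of the 10 genes on the deposited scale and of 3 once median ratio scaled.

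The promoters of Ubash3a, which rose most with TPM as deposited, and Cblb, which fell, are shown so that they can be set beside each other, as RefSeq gives them on GRCm38.p6, from 250 bases before to 50 after the start site; 9 of the 10 genes had an entry. Ubash3a is shown at chr17:31207816-31208115 and Cblb at chr16:52031299-52031598, both on the + strand. Capitals mark matches on either strand to TGANTCA (AP-1), GGAAA (NFAT core), TGTGGT (RUNX) or GGGCGG (SP and KLF box), of which no 2 overlap here.
Ubash3a: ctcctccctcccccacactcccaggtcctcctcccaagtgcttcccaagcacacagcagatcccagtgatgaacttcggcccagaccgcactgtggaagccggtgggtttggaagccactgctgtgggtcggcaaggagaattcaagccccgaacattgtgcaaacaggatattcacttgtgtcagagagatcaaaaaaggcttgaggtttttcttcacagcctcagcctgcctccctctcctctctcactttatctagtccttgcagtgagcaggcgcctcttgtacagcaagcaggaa
Cblb: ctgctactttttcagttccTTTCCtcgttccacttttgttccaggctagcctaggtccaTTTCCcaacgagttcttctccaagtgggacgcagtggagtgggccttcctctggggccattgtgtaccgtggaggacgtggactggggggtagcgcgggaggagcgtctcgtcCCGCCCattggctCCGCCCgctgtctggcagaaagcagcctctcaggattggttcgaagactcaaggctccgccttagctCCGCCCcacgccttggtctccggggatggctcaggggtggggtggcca
The Ubash3a window had no match, 6 CpG and 54.7% G+C, and the Cblb window had 2 matches to GGAAA and 3 to GGGCGG, 17 CpG and 61.3% G+C. Of 32851 promoters of the same length, 7.81% held TGANTCA, 61.3% GGAAA, 16.8% TGTGGT and 35.7% GGGCGG.

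Among 33 tested genes of other negative regulators, 11 rose, 5 fell and 17 did not pass, with a median log2 fold change of 0.04, against 0.13 over all genes. Over all tested genes 33.5% rose and 12.2% fell, shares close to those of this list, and 23.7% rose and 21.5% fell with median ratio scaling; the counts of the lists that follow are to be read against the same shares. Lax1, an adaptor that inhibits lymphocyte receptor signals, was at 345.5 ± 17.0 TPM in Rig1 KO and 186 ± 5.16 TPM in WT libraries (SD, n = 4 and 5, as for the genes that follow; log2 fold change 0.89, adjusted p = 3.14e-07). Sit1, an inhibitory transmembrane adaptor, was at 269 ± 11.96 TPM in Rig1 KO and 209 ± 7.51 TPM in WT libraries (0.36). The Sprouty genes Spry1 and Spry2, feedback inhibitors of Ras and MAP kinase signalling, fell: Spry1 was at 4.42 ± 0.931 TPM in Rig1 KO and 16.05 ± 2.70 TPM in WT libraries (-1.65, adjusted p = 8.01e-06). Spry2 was at 18.8 ± 2.90 TPM in Rig1 KO and 59.7 ± 17.6 TPM in WT libraries (-1.57). With median ratio scaling 8 of the 33 were higher and 7 lower. Of 4 other diacylglycerol kinases tested, Dgkq and Dgkh rose and Dgkd and Dgke did not pass; with median ratio scaling Dgkd was lower (log2 fold change -0.16, adjusted p = 0.0144). Dgkq was at 13.7 ± 0.821 TPM in Rig1 KO and 9.18 ± 1.05 TPM in WT libraries (log2 fold change 0.54), and Dgkh at 1.95 ± 0.236 TPM in Rig1 KO and 1.22 ± 0.105 TPM in WT libraries (0.41).

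A further list held 19 tested genes for receptor chains, kinases, adaptors and other enzymes close to the receptor. Of these 9 rose (Cd3d, Cd3e, Cd3g, Lck, Fyn, Lat, Plcg1, Nck1 and Ptprc) and 10 did not pass, with a median log2 fold change of 0.17. Under median ratio scaling 5 rose and 5 fell. Of all genes on the deposited scale, 33.5% were higher and 12.2% lower. Cd3e, a receptor chain, was at 304 ± 24.8 TPM in Rig1 KO and 215 ± 19.0 TPM in WT libraries (0.50), and Lat, the adaptor that gathers the downstream enzymes, at 773 ± 32.9 TPM in Rig1 KO and 631 ± 18.0 TPM in WT libraries (0.29). Plcg1, the enzyme that generates diacylglycerol, was at 6.003 ± 0.790 TPM in Rig1 KO and 3.82 ± 0.368 TPM in WT libraries (0.54). Of 17 diacylglycerol effectors and members of the Ras and MAP kinase arm, 5 rose and 4 fell, and with median ratio scaling 2 rose and 6 fell. The 5 became 3 without WT 1, WT 2, Rig1 KO 3 or Rig1 KO 4, and the 4 became 1 without WT 1 and 2 without WT 4, Rig1 KO 1 or Rig1 KO 2. Nras, a Ras family GTPase, was at 176 ± 15.5 TPM in Rig1 KO and 114 ± 7.76 TPM in WT libraries (0.62).

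Of 12 adaptors and ubiquitin enzymes that work with the CBL proteins, 3 rose and 1, Ube2d2a, fell (all genes, 33.5% and 12.2%), and with median ratio scaling 2 rose and 4 fell. The call of Ube2d2a was lost without WT 1, WT 4, WT 5, Rig1 KO 1 or Rig1 KO 2. Crk, an adaptor bound by CBL proteins, was at 46.9 ± 4.66 TPM in Rig1 KO and 35.5 ± 1.77 TPM in WT libraries. Of 9 tested genes for receptor chains, Janus kinases and STAT proteins of the cytokine pathways that PTPN2 dampens, 5 rose and 1 fell with TPM as deposited, and 4 rose and 4 fell with median ratio scaling, while Ptpn2 itself passed with neither. Il2rb was at 503.6 ± 6.37 TPM in Rig1 KO and 365 ± 27.5 TPM in WT libraries (0.47), and Ifngr1, the one that fell, was at 184 ± 12.6 TPM in Rig1 KO and 235 ± 11.3 TPM in WT libraries (-0.35). Of 29 tested genes that receptor signals can induce, 24 fell and 1 rose, with a median log2 fold change of -1.68. Median ratio scaling gave the same counts. Whether receptor signalling itself differed between the genotypes was not tested. In this last list Dusp1, a MAP kinase phosphatase, was at 7.24 ± 0.662 TPM in Rig1 KO and 89.7 ± 9.29 TPM in WT libraries.

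**Figure D5:**
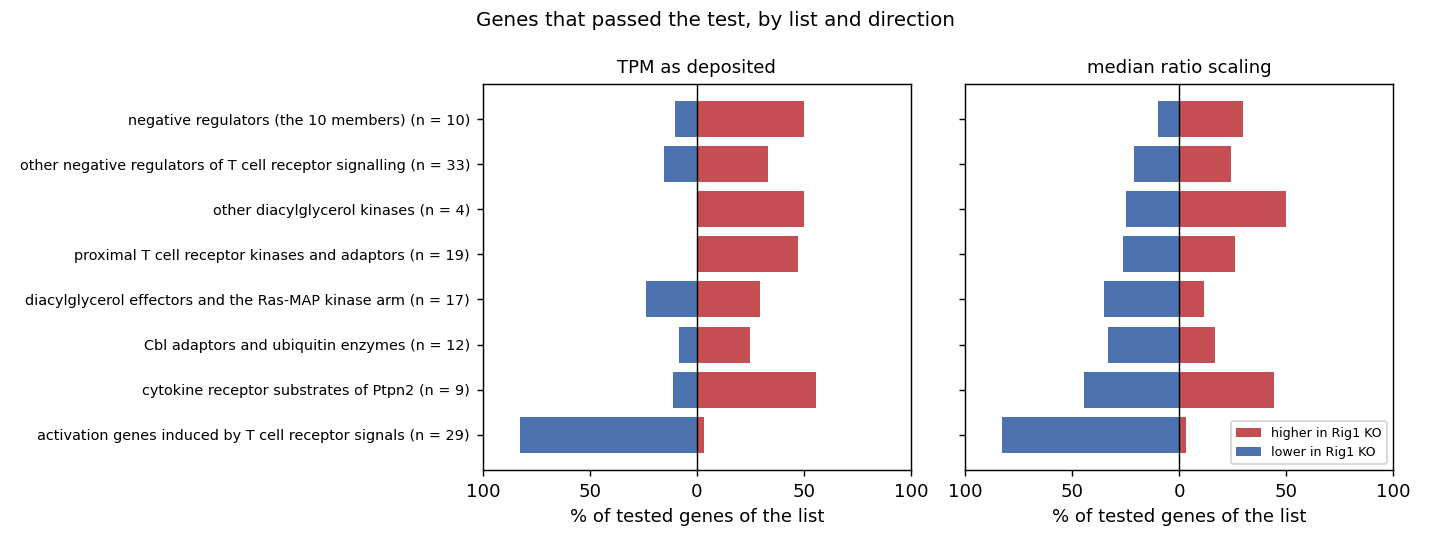
Share of the tested genes of each list that were higher (right of 0) or lower (left of 0) in Rig1 KO at an adjusted p below 0.05, with the deposited TPM (left panel) and with median ratio scaling (right panel); n is the number tested. The activation genes fell in 24 of 29 with either scaling, while the 10 negative regulators stand at 5 higher and 1 lower with TPM as deposited and at 3 higher and 1 lower after scaling.

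By the root mean square difference of centred log2(TPM + 1) over the 9 libraries, the genes nearest to Ubash3a were Zfp422 (0.0373), Gimap5 (0.0401) and Sp110 (0.0436). Zfp422 was at 72.8 ± 6.58 TPM in Rig1 KO and 54.3 ± 2.37 TPM in WT libraries. The genes nearest to Cblb were Prkch (0.0299), a protein kinase C gene, Ifngr1 (0.0313) and Serinc1 (0.0400), and Prkch was at 16.2 ± 1.54 TPM in Rig1 KO and 21.2 ± 0.785 TPM in WT libraries. Likeness here is over 9 libraries that share the genotype difference.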

How the data were processed

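The authors deposited TPM, with a column for each library per the file headers, summing to 1000000. Trimming with fastp, gene counting with featureCounts and the build mm39 (GRCm39) come from the submitters' processing notes; for the aligner, annotation release, strand setting and versions the sources used here give nothing. Whole reads were recovered from the TPM of 100% of genes within a relative tolerance of 2e-12. The test was limma 3.58.1 (R 4.3.3, trend over mean expression, no covariates, two-sided) on log2(TPM + 1) of the 10540 genes that reached a TPM of 1 in 4 or more libraries. Benjamini-Hochberg adjusted p-values over those genes were called below 0.05. A log2 fold change, Rig1 KO minus WT, is on that scale and understates the change of low genes. The titles do not say whether the replicate numbers pair libraries, and the test treats the libraries as unpaired. Alternatives changed the pseudocount, filter, scaling, gene length, test, libraries, replicate block and B cell covariate, and 1, the CD3 scaling, was chosen after seeing the data. The gene lists hold 191 symbols, of which 183 were found. Exon lengths came from a GRCm38 annotation and served only for lengths. Named were all 10 members, Ddx58, up to 4 genes per list with the smallest p and the 3 nearest profiles of the members with the largest rise and fall. The other genes of the markers are given as sums. Outside this rule, Pmel was added for its overlap with Dgka, and the natural killer cell markers for their part in that list's sum. Some genes that this rule names are not reported here. The members and lists were chosen with earlier results of these data known.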

Additional observations from a re-analysis of the deposited data

Results flagged for a closer look

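A value standing apart from the rest of its group was found in 2 of 30 groups tested, and chance gives about 1 in 20. Csk was at 125 TPM in Rig1 KO 2, below the other Rig1 KO libraries at 133 to 135 TPM; with median ratio scaling it was at 125 TPM, inside the range of the others at 121 to 132 TPM. The log2 ratio of Ubash3b to Ubash3a was -3.05 in Rig1 KO 1, below the other Rig1 KO libraries at -2.88 to -2.86.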

How the results depend on the processing

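Ubash3a and Ddx58 stayed called in all 21 alternatives. The count of members higher, 5 of 10, became 3 with median ratio scaling, 3 with the B cell covariate, 3 without WT 4 and WT 5 and 1 with CD3 scaling, and the count lower became 0 with the B cell covariate; leaving out a library gave 4 to 5 higher and 1 lower. Over the 123 tested genes of the lists, 36 were higher and 35 lower; they were 24 higher and 51 lower with median ratio scaling, 29 and 49 with quantile scaling, 33 and 47 with voom, 17 and 24 with the B cell covariate and 6 and 52 with CD3 scaling, and the higher count ranged from 28 to 38 without a library, with 30 to 36 lower. For genes with no call the sign turned: Csk was -0.072 with median ratio scaling, -0.047 with quantile scaling, -0.019 with voom, -0.00085 without WT 3 and -0.16 with CD3 scaling; Ptpn2 was -0.050 (median ratio), -0.089 (quantile), -0.052 (B cell covariate), -0.0013 (without WT 4 and WT 5) and -0.13 (CD3); Cbl was -0.023 (median ratio), -0.020 (quantile) and -0.11 (CD3); Dgkz was -0.018 (median ratio) and -0.10 (CD3). Of the called genes Dgka turned, to -0.015 with CD3 scaling. Without a library Csk reached 0.12 (without WT 5), Cbl ran from 0.037 (without Rig1 KO 4) to 0.18 (without Rig1 KO 2) and Ptpn2 from 0.025 (without WT 5) to 0.10 (without WT 3). The cause was not tested. Leaving out a library, the ratios ranged from 0.060 to 0.10 (Dgka to Dgkz), -0.52 to -0.44 (Cblb to Cbl), 0.24 to 0.41 (Ptpn22 to Csk) and -0.08 to -0.01 (Ubash3b to Ubash3a), and fewer libraries leave the exact test less room. With TPM + 1 the ratio differences of Ubash3b to Ubash3a, -0.11, and Ptpn22 to Csk, 0.33, passed (adjusted p = 0.0397 for both by exact permutation). The added 1 shrinks the change of a low gene such as Ubash3b (3.73 to 5.91 TPM) more than that of Ubash3a. It also makes a ratio depend on the library's scaling, so the pass of Ubash3b to Ubash3a is not read as a shift between them. Without WT 4 and WT 5 Dgka to Dgkz was 0.070 and Cblb to Cbl -0.46 (exact adjusted p = 0.0571 for both), and Ptpn22 to Csk 0.17 (exact adjusted p = 0.190). With the replicate block over 4 pairs, 4 members were higher and 1 lower, and Dgka was not called (adjusted p = 0.0731). Same-numbered libraries correlated from -0.0996 to 0.0972, which cannot show whether they were prepared together. In this setting Dgka to Dgkz was 0.060 and Cblb to Cbl -0.46 (exact adjusted p = 0.167 for both). The smallest p of 4 pairs is 0.125, so no ratio could pass. Depth limits Ubash3b most, with 820 reads in its lowest library.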
